A study of Arabidopsis thaliana with 4 samples.

Results

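The transcripts described here are those of 6 Arabidopsis thaliana kinesin genes of the mitotic spindle and the phragmoplast, out of 13286 genes that had a probe set of their own on an Affymetrix array of 22746 non-control probe sets. They are MDKIN2 (AT2G22610), RSW7 (AT2G28620), AT2G37420, ZCF125 (AT1G59540), PAKRP1L (AT3G23670) and kinesin-12F (AT3G20150). They were chosen by gene name, with earlier results of these data known. In the platform annotation each of the 6 probe sets had 1 gene, the one named. Whole Col-0 seedlings were grown under long days at 23 °C and taken at an age of 10 days, and their total RNA was hybridised to 4 arrays. The 2 arrays of 35S:miR396 are numbered 1 and 2. The 2 arrays of wild type are numbered 1b and 2. The transgenic plants overexpress the microRNA miR396 from the viral 35S promoter, which works in most tissues of a plant and is not limited to dividing cells. The labels do not give the number of transgenic lines or of pooled plants, nor whether replicates came from separate cultures. The p-values therefore rest on a spread between arrays that may be technical.

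Kinesins are motor proteins that use ATP to move along microtubules or to slide them. Kinesin-5 motors push antiparallel microtubules apart and keep the spindle bipolar, most kinesin-14 motors walk towards microtubule minus ends, and kinesin-12 motors of plants act at the phragmoplast, the microtubule array that builds the new cell wall during cytokinesis. Their transcripts are found mainly in dividing cells. miR396 cleaves transcripts of GROWTH-REGULATING FACTOR genes, which promote cell proliferation in young leaves, and the kinesins are not among its well-known direct targets. In whole seedlings, fewer dividing cells and less kinesin RNA per dividing cell cannot be told apart.

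The median signal of the non-control probe sets was 60.5 on 35S:miR396 1 and 81.3 on 35S:miR396 2, against 72.8 on wild type 1b and 71.3 on wild type 2. Each array was therefore centred on its median log2 signal before the genotypes were compared. The seedling label was checked with fixed marker lists. In all lists a gene counts as measured only if the annotation assigned a probe set to it alone. The 4 measured genes of 8 listed for green tissue had mean signals from 7081 to 12641 in 35S:miR396 and from 7845 to 13180 in wild type. The only measured root marker of 6, the beta-glucosidase PYK10, had a mean of 1347 in 35S:miR396 and 1258 in wild type. The only measured shoot meristem marker of 6 was CLV3, a signalling peptide of the stem cell niche. It was at 1.5 and 1.5 in 35S:miR396 and at 7.9 and 2.2 in wild type. These CLV3 signals were under the filter on low signals, and the other listed meristem markers had no probe set assigned to them alone. The share of meristem in the samples was therefore not read, and its part in the kinesin values was not tested. AT5G45880, the only measured marker of 5 for flower or pollen, had a mean signal of 2.65 in 35S:miR396 and 1.9 in wild type.

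The kinesin signals were low on these arrays and mostly lower in 35S:miR396, but none of the 6 genes passed the test. With centred arrays the log2 fold changes of 35S:miR396 over wild type lay between -1.06 and -0.26, with a median of -0.56 and 6 of 6 below 0. Over all 15922 probe sets tested the median was 0.00 and 50.8% were below 0. All 6 passed the filter on mean signal, whose lowest kept value was 15.8. In limma's test of the genotypes, 0 of the 15922 probe sets, or 0%, passed a Benjamini-Hochberg adjusted p of 0.05 in either direction, and 103 (0.647%) had an unadjusted p under 0.05. RSW7 was the member among these 103. A permutation test of 2 against 2 arrays cannot go below an exact two-sided p of 0.333.

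**Figure D1:**
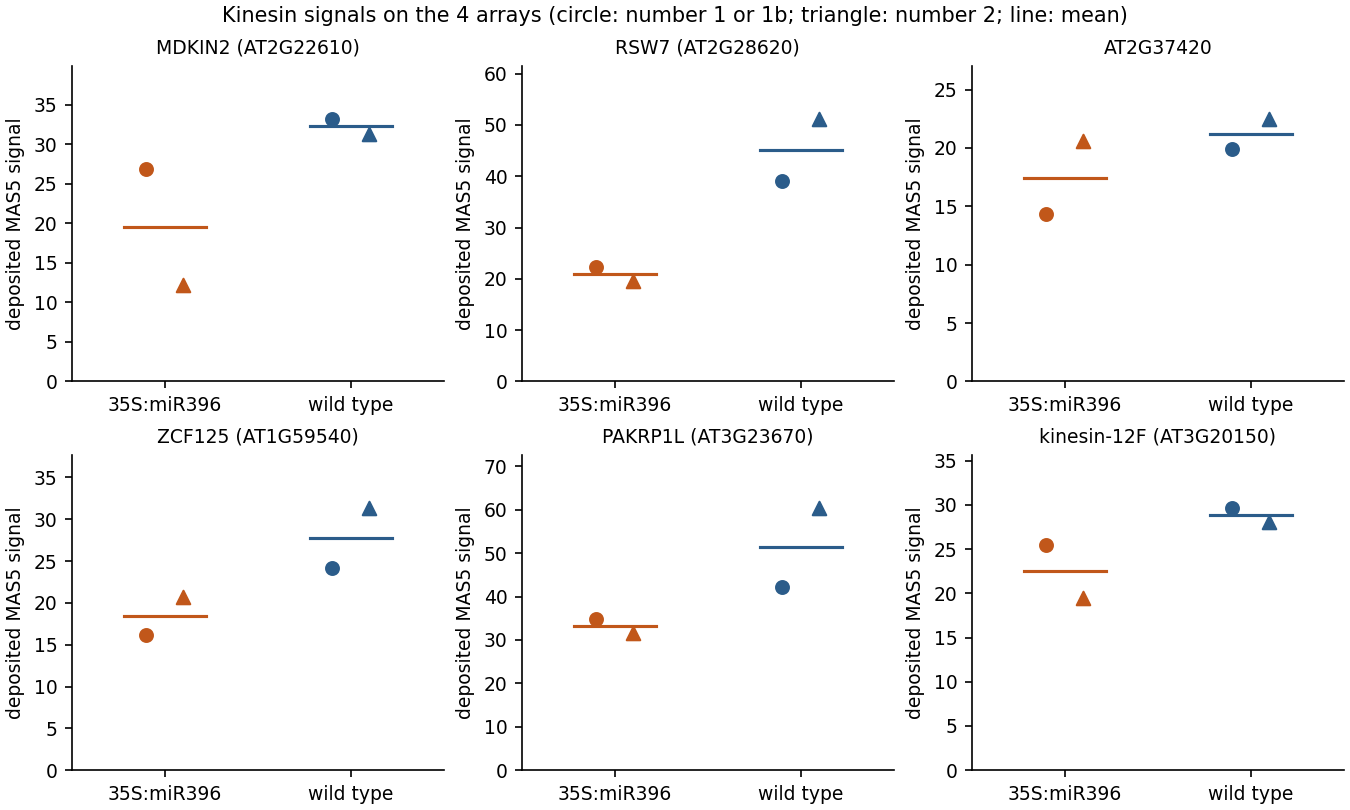
Deposited MAS5 signal (linear scale, from 0) of the 6 kinesins, with the 35S:miR396 arrays on the left and the wild-type arrays on the right of each panel. Circles are arrays 1 and 1b, triangles are arrays 2, and lines are means of 2 arrays. RSW7 is at 22.3 and 19.6 in 35S:miR396 against 39.1 and 51.2 in wild type, and AT2G37420 overlaps between the genotypes.

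Of the spindle motors, RSW7 had the widest gap between the genotypes. RSW7 is a kinesin-5, and its mutant was named for radially swollen roots. Its deposited signal was 22.3 on 35S:miR396 1 and 19.6 on 35S:miR396 2, against 39.1 on wild type 1b and 51.2 on wild type 2. Both 35S:miR396 arrays lay below both wild-type arrays, and the groups did not overlap before or after centring. The means were 20.9 ± 1.91 in 35S:miR396 and 45.1 ± 8.56 in wild type (SD, n = 2 each). The log2 fold change was -1.06 (limma 95% interval -2.00 to -0.12, adjusted p = 1.00 over all probe sets), and RSW7 was the 1 member of 6 whose interval did not include 0.

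AT2G37420, the other kinesin-5 of the 6, stood closer to wild type. Its signal was 14.3 and 20.6 on the 35S:miR396 arrays 1 and 2, against 19.9 and 22.5 on the wild-type arrays 1b and 2. The deposited signals overlapped, as 35S:miR396 2 exceeded wild type 1b. After centring, both 35S:miR396 arrays lay below both wild-type arrays, with log2 values of -2.08 and -1.98 in 35S:miR396 against -1.87 and -1.66 in wild type. The log2 fold change was -0.26 (95% interval -1.15 to 0.63).

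ZCF125 belongs to the kinesin-7 family, which in animals includes the kinetochore motor CENP-E. Its signal was 16.2 and 20.7 on the 35S:miR396 arrays, against 24.2 and 31.4 on the wild-type arrays. The groups did not overlap on either scale. Its log2 fold change was -0.55 (95% interval -1.43 to 0.33).

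MDKIN2 belongs to the kinesin-14 family, and it had the largest difference between the 35S:miR396 arrays of the 6. Its signal was 26.9 on 35S:miR396 1 and 12.2 on 35S:miR396 2, against 33.2 and 31.3 on wild type 1b and 2. The array 35S:miR396 2 was low and the other 3 were close to each other. After centring, 35S:miR396 1 at -1.17 lay between the wild-type arrays at -1.13 and -1.19, so the groups overlapped. The mean signal was 19.6 ± 10.4 in 35S:miR396 and 32.2 ± 1.34 in wild type (SD, n = 2 each). The log2 fold change was -0.79 (95% interval -2.32 to 0.74).

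Of the 2 phragmoplast motors, PAKRP1L, also named kinesin-12B, had the wider gap. It sits at the midline of the phragmoplast and acts together with its close relative PAKRP1 in cytokinesis. Its signal was 34.9 and 31.5 on the 35S:miR396 arrays, against 42.2 and 60.5 on the wild-type arrays. The groups did not overlap in deposited signals. After centring the gap between 35S:miR396 1 at -0.794 and wild type 1b at -0.787 was nearly 0, and the distance between the genotypes came from the arrays numbered 2. The log2 fold change was -0.57 (95% interval -1.48 to 0.35).

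Kinesin-12F, a motor of the same family, was at 25.5 and 19.5 on the 35S:miR396 arrays, against 29.7 and 28.1 on the wild-type arrays. In deposited signals both 35S:miR396 arrays were lower. After centring, 35S:miR396 1 at -1.25 lay above both wild-type arrays at -1.29 and -1.34, and 35S:miR396 2 lay below them at -2.06. The log2 fold change was -0.33 (95% interval -1.36 to 0.69).

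Counted over the 6 genes, 4 had their 35S:miR396 arrays both below the wild-type pair after centring, where 10.7% of all tested probe sets did so. In deposited signals the count was 5 of 6 against 8.1% of all tested probe sets, with MDKIN2 and kinesin-12F added and AT2G37420 lost. The genes were chosen with these data known, so the counts describe the 6 and are not a test of them.

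The ratios of 35S:miR396 to wild type were taken within each replicate number, which gives 2 comparisons that share no array. In number 1, 35S:miR396 1 over wild type 1b, the log2 ratios after centring were -0.54 for RSW7, -0.21 for AT2G37420, -0.31 for ZCF125, -0.04 for MDKIN2, -0.01 for PAKRP1L and 0.05 for kinesin-12F. No member was 1.5-fold lower there, where 3.93% of all tested probe sets were, or 2-fold lower, where 1.16% were. RSW7 came nearest, at 1.46-fold lower. The AT2G37420 ratio in number 1 rests on a signal of 14.3 on 35S:miR396 1, which is under 15.8, the lowest mean signal kept.

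**Figure D2:**
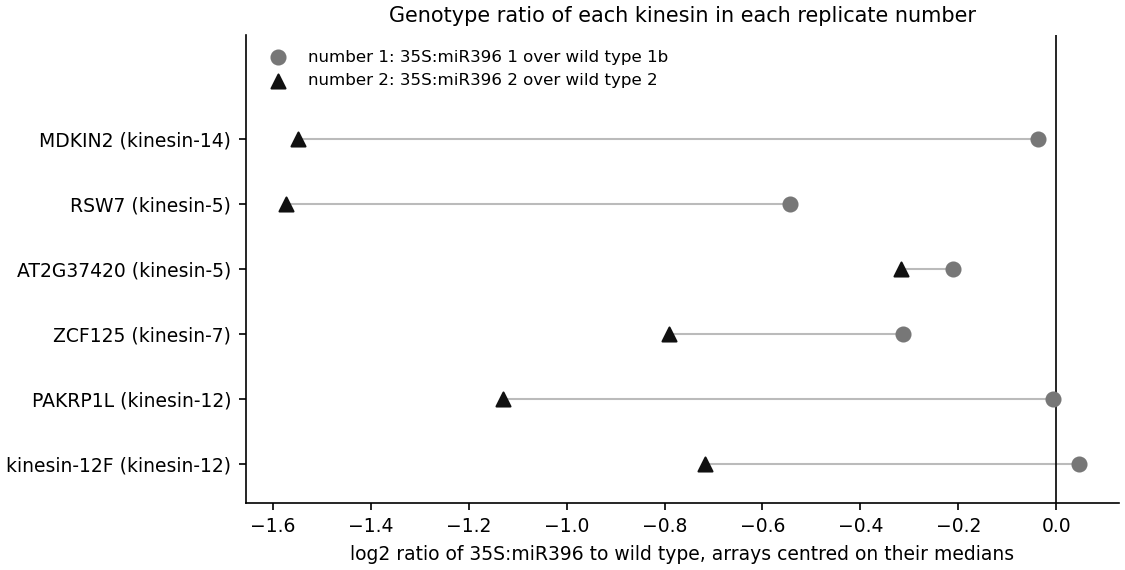
Log2 ratio of 35S:miR396 to wild type for each kinesin on median-centred arrays, with grey circles for number 1 (35S:miR396 1 over wild type 1b) and black triangles for number 2 (35S:miR396 2 over wild type 2). The number 1 ratios lie between -0.54 and 0.05 and the number 2 ratios between -1.57 and -0.32, further below 0 for every one of the 6 genes.

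In number 2, 35S:miR396 2 over wild type 2, all 6 ratios were below 0, as were those of 8657 of the 15922 tested probe sets. RSW7 was 2.98-fold lower (log2 ratio -1.57), MDKIN2 2.93-fold lower (-1.55) and PAKRP1L 2.19-fold lower (-1.13). The MDKIN2 ratio rests on a signal of 12.2 on 35S:miR396 2, which is under 15.8, the lowest mean signal that the filter kept. ZCF125 was 1.73-fold lower (-0.79), kinesin-12F 1.64-fold lower (-0.72) and AT2G37420 1.25-fold lower (-0.32). In this comparison 5 of 6 members were at least 1.5-fold lower, against 3.85% of all tested probe sets, and 3 of 6 at least 2-fold lower, against 0.936%. These shares are not matched for signal level. The SD of the number 2 log2 ratios was 0.58 among probe sets as dim as the 6, against 0.35 over all tested. As the genes were chosen with these data known, the counts are not a test. The median log2 ratio of the 6 was -0.12 in number 1 and -0.96 in number 2, where the medians over all tested probe sets were 0.01 and -0.02. Both ratios were below 0 for 5 of 6 genes, kinesin-12F being the exception, and for 26.0% of all tested probe sets. With a pseudocount of 16 added to the signals, the count was 3 of 6, and the share of all tested probe sets was not taken.

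**Figure D3:**
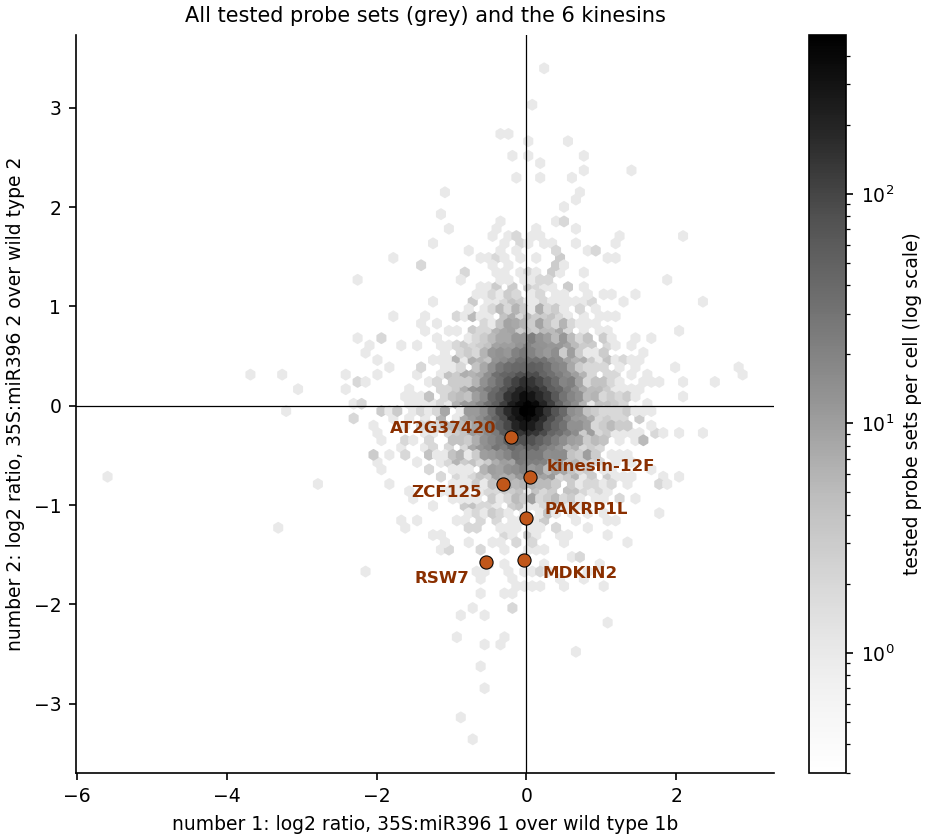
Genotype log2 ratios (35S:miR396 over wild type) after centring, number 1 on the horizontal and number 2 on the vertical axis, for the 15922 tested probe sets in grey (darker cells hold more, log scale) and the 6 kinesins in orange. The kinesins spread downwards along the number 2 axis, to -1.57 for RSW7, and stay within 0.54 of 0 on the number 1 axis.

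The step between the numbers was largest for MDKIN2, whose log2 ratio was lower by 1.51 in number 2 than in number 1 (difference -1.51), and smallest for AT2G37420 (difference -0.11). The differences were -1.12 for PAKRP1L, -1.03 for RSW7, -0.76 for kinesin-12F and -0.48 for ZCF125. With 1 array for each genotype and number no spread is left to test these differences. Array 35S:miR396 2 was the lowest of the 4 after centring for 5 of 6 genes, and AT2G37420 was the exception. Wild type 2 was the highest of the 4 for 4 genes, the exceptions being MDKIN2 and kinesin-12F. The shares of all tested probe sets with these patterns were not taken, so the patterns are not shown to be particular to the 6. The number 2 ratios combined a low 35S:miR396 array with a high wild-type array for RSW7 and PAKRP1L, and a low 35S:miR396 array alone for MDKIN2 and kinesin-12F. For ZCF125 the centred 35S:miR396 arrays 1 and 2 were close, at -1.90 and -1.97. Its wild type 2 at -1.18 lay above wild type 1b at -1.59.

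Probe sets with such low signals vary more. Among the 2139 tested probe sets whose mean level lay within the range of the 6 kinesins, the SD of the same-number log2 ratios was 0.59 in number 1 and 0.58 in number 2, against 0.36 and 0.35 over all tested probe sets. The number 2 ratios of RSW7 and MDKIN2 were over 2 of these SDs from 0, and the number 1 ratios of all 6 were within 1 SD. Between the arrays of a genotype the SD in that range was 0.74 in 35S:miR396 and 0.73 in wild type.

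Leaving out single arrays moved the members unequally. Without 35S:miR396 2, the log2 fold change of MDKIN2 was -0.01, that of kinesin-12F was 0.07 and that of PAKRP1L was -0.28, while that of RSW7 was -0.75, that of ZCF125 -0.51 and that of AT2G37420 -0.31. Without wild type 2 it was -0.29 for PAKRP1L, -0.35 for ZCF125, -0.16 for AT2G37420 and -0.85 for RSW7. Without 35S:miR396 1 it was -1.58 for MDKIN2, -0.86 for PAKRP1L and -0.74 for kinesin-12F. RSW7, ZCF125 and AT2G37420 had log2 fold changes below 0 with any of the 4 arrays left out, as did PAKRP1L and MDKIN2, the last at -0.01 in 1 case. The median of the 6 ranged from -0.80 to -0.30.

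**Figure D4:**
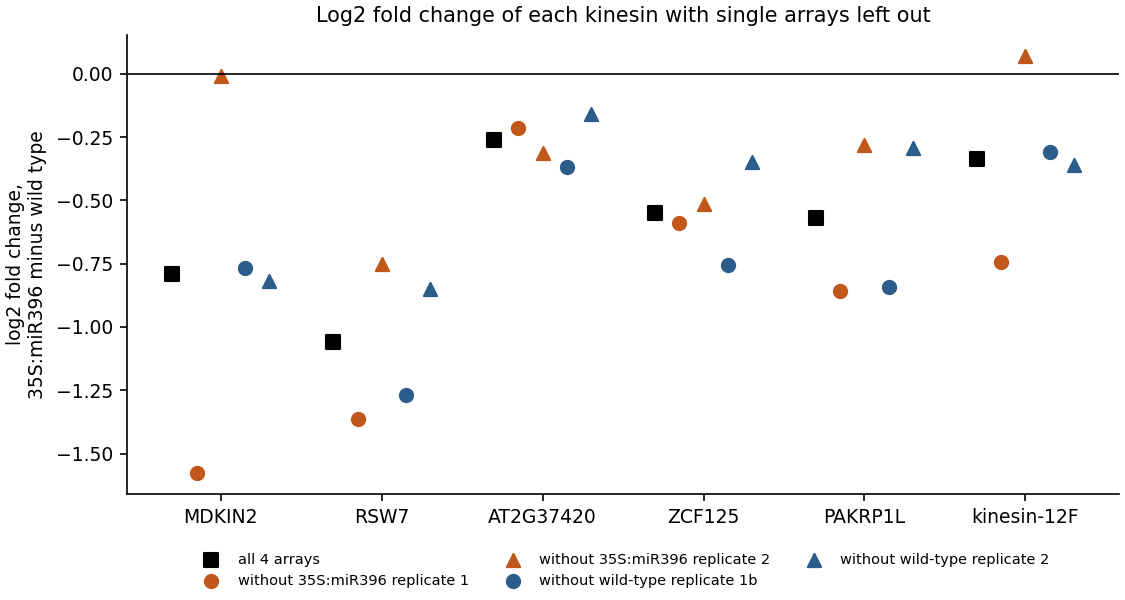
Log2 fold change of 35S:miR396 minus wild type for each kinesin with all 4 arrays (black squares) and with 1 array left out (orange for a 35S:miR396 array, blue for a wild-type array, circles for 1 or 1b, triangles for 2). RSW7 stays between -1.37 and -0.75, while MDKIN2 moves to -0.01 and kinesin-12F to 0.07 without 35S:miR396 2.

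Other kinesins of mitotic families were set beside the 6 from a list of 21 loci, of which 11 were measured and 10 passed the filter. None of the 10 passed the test in either direction. Their log2 fold changes had a median of -0.03, with 6 of 10 below 0, and 2 of 10 were lower and 1 of 10 higher on both 35S:miR396 arrays, where 10.7% and 9.18% of all tested probe sets were. The direction of this median turned when single arrays were left out (range -0.15 to 0.18). The kinesin-5 genes AT2G36200 and AT3G45850 had log2 fold changes of -0.24 and -0.05, so that of 4 kinesin-5 genes RSW7 lay farthest from 0. AT1G72250 was at -0.01, AT4G14330 at -0.16, AT5G02370 at -0.16, AT5G23910 at 0.06, AT3G49650 at 0.17, AT5G60930 at 0.19 and AT3G10180 at 0.54. AT3G44050 was at -1.07 with an interval from -2.91 to 0.76, and its signal was 5.2 on 35S:miR396 1 but 25.5 on 35S:miR396 2, within the wild-type range. AT1G18550 lay under the filter, at 12.6 and 11.9 in 35S:miR396 and 3.6 and 17.4 in wild type. In number 1 the list had a median log2 ratio of 0.32, with 3 of 10 below 0, against 7619 of all 15922 tested probe sets. In number 2 the list had a median of -0.21, with 8 of 10 below 0, against 8657 of 15922. The difference between the 6 and these 10 was not tested, since the 6 were chosen with their values known.

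**Figure D5:**
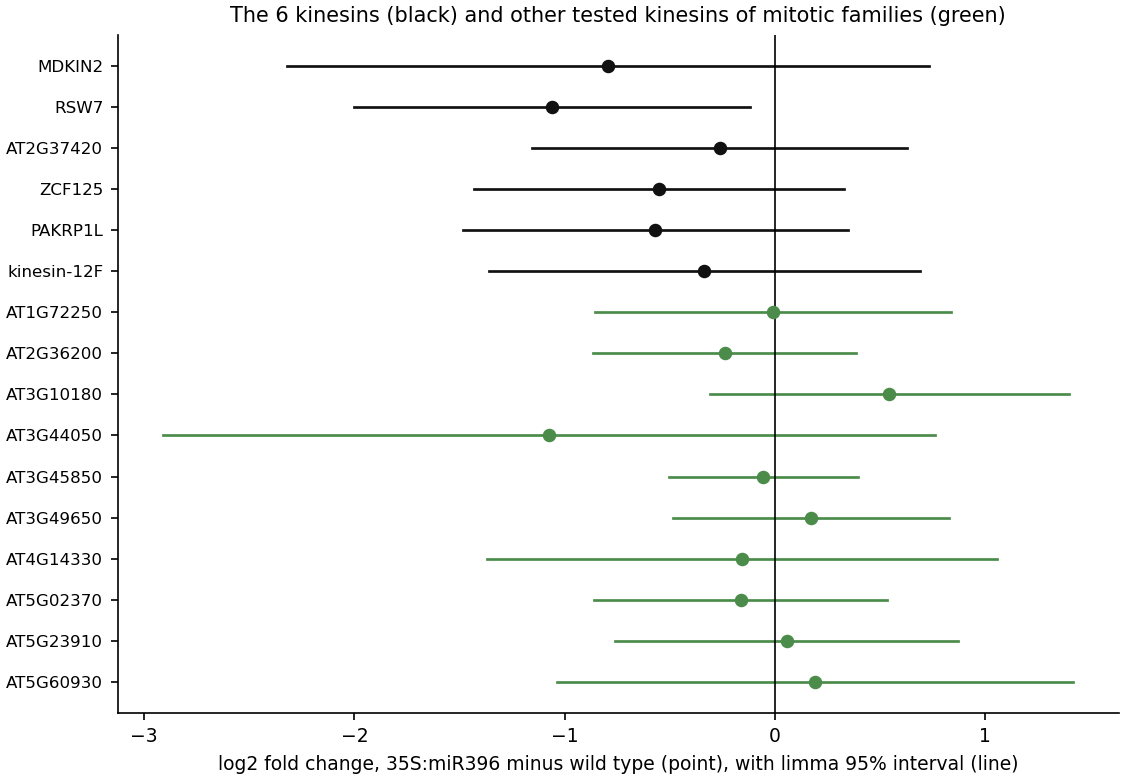
Log2 fold change of 35S:miR396 minus wild type (points) with limma 95% intervals (lines) for the 6 kinesins in black and the 10 other tested kinesins of mitotic families in green. The interval of RSW7, -2.00 to -0.12, is the only one of the 16 that does not include 0.

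Kinesins of other roles, from a list of 34 loci with 24 measured and 18 tested, gave a median of 0.16 on the log2 scale. Of the 18, 13 were above 0, as were 7832 of all 15922 tested probe sets, and none of the 18 passed the test. Without wild type 1b the median was -0.0031. In number 1 the median log2 ratio of the 18 was 0.29, with 2 below 0, against 7619 of all 15922 tested probe sets. In number 2 the median of the 18 was -0.18, with 11 below 0, against 8657 of 15922. The 8 with the highest mean signal were KINESIN-13A at -0.08, AT2G21380 at 0.04, AT5G27950 at 0.16, AT3G16060 at 0.24, KICP-02 at -0.16, AT4G39050 at 0.21, AT3G12020 at 0.37 and AT1G21730 at 0.18. KINESIN-13A is a motor found at Golgi stacks.

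Few transcripts of the proteins that the motors work with could be assigned to a probe set. The annotation named no gene for 8730 probe sets, so a listed gene without an assigned probe set may still have a signal on the arrays. Of 38 loci listed for the spindle and phragmoplast, 5 were measured by a probe set of 1 gene, and none passed. Their median was 0.08 and turned to -0.17 without 35S:miR396 1. KEU, which regulates vesicle fusion at the cell plate, had a log2 fold change of 0.10. TPLATE, of an endocytic complex at the cell plate, had one of 0.27, and the microtubule-associated protein ATMAP65-6 one of 0.08. TON1B, needed for the preprophase band, had one of -0.07, and AT5G17410 one of -0.18. The tubulins, which form the microtubule track, had a median of -0.03 over 7 tested genes of 17, which turned to 0.0022 after quantile normalization, and none passed the test. TUA6 had mean signals of 2824 ± 573 in 35S:miR396 and 2934 ± 358 in wild type (SD, n = 2 each). The log2 fold changes of TUB5, TUB6, TUB7, TUB9, TUB1 and TUA1 were -0.08, -0.11, -0.11, 0.08, 0.05 and 0.11. Of 26 mitotic cyclins and kinases 3 had a probe set of 1 gene, the aurora kinases AUR1 (-0.35), AUR2 (-0.21) and AUR3 (0.05), and none passed. In number 2 the log2 ratios of AUR1 and AUR2 were -0.60 and -0.71, and in number 1 they were -0.10 and 0.29.

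The genes most like the 6 kinesins were sought among 8682 tested probe sets of 1 gene outside the lists, by the Euclidean distance over the 4 arrays between each centred log2 profile, less its own mean, and the mean profile of the 6. The mean profile was 0.00 on 35S:miR396 1 and -0.59 on 35S:miR396 2, against 0.17 on wild type 1b and 0.42 on wild type 2. The 5 nearest were AT2G31725 (distance 0.09), AT1G12570 (0.15), AT2G40530 (0.16), AT2G47720 (0.16) and 3xHMG-box1 (0.18), the last a DNA-binding protein of mitotic chromosomes. 3xHMG-box1 had log2 ratios of -0.19 in number 1 and -0.97 in number 2, and AT2G31725 had -0.05 and -1.02. The 6 kinesins themselves lay at distances from 0.22 for PAKRP1L to 0.75 for MDKIN2, so each of the 5 was nearer to the mean profile than any member. Likeness over 4 arrays is a description, since so many genes were compared.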

How the data were processed

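The authors deposited 1 table of linear intensity values, 1 for each probe set and array. Per the submitters' processing notes they come from MAS5, whose version, scaling target and detection calls are not given in the sources used here. Arrays were mapped to genotypes by the sample titles. The 64 Affymetrix controls were left out. The platform annotation gave 1 gene for 13513 probe sets, and RefSeq names of TAIR10.1 matched 13436 of them to a locus. The annotation gave several genes for 503 probe sets and none for 8730, and these could not be matched to the gene lists. The 6 values at or under 0 were set to 0.1. Log2 values were centred on each array's median, and the dimmest 30% of probe sets by mean were left out. The fit used limma 3.58.1 and R 4.3.3 (lmFit, eBayes with a trend, two-sided, Benjamini-Hochberg, threshold 0.05), without a block. The median half-width of the 95% intervals was 0.63, and the number of arrays limits the precision. Tables and figures used Python 3.11.15, pandas 2.3.3, numpy 2.4.6 and matplotlib 3.10.9.

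The members, lists, tests and alternatives were chosen with earlier results of these data known. The text names all 6 members, every measured gene of a list with up to 12 measured and the 8 with the highest mean signal of a longer list, and the 5 nearest profiles. Where a gene such as AT3G10180 had several probe sets, the brightest by mean was read. The limma step was tested on simulated data with independent noise on each array. The simulated arrays had no effect shared within a replicate number, so they do not show how the test behaves on the real arrays.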

Additional observations from a re-analysis of the deposited data

How the results depend on the processing

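None of the 6 kinesins passed an adjusted p of 0.05 under any alternative (adjusted p from 0.565 to 1.00), and with the dimmest 60% of probe sets removed none of the 6 remained. The log2 fold change of kinesin-12F ranged from -0.74 to 0.072 with single arrays left out. The number of probe sets past the threshold was 0 without a block and 18 with the replicate number as a block, none of them a kinesin of the 6. With this replicate block the adjusted p of RSW7 was 0.565. Labels do not state that a number pairs arrays. Across tested probe sets, differences between the numbers in 35S:miR396 and in wild type correlated at 0.63. With a pseudocount of 16, 3 of 6 genes had both same-number ratios below 0, against 5. No overlap between the genotypes was left for 3 of 6, against 4. The shares of all tested probe sets under the pseudocount were not taken, so these counts cannot be set against them. The pseudocount also shrank the log2 fold changes. They were -0.69 for RSW7, -0.44 for MDKIN2, -0.41 for PAKRP1L, -0.32 for ZCF125, -0.20 for kinesin-12F and -0.13 for AT2G37420. Their median was -0.36 against -0.56. Medians of other lists changed direction or size with single arrays left out. Mitotic cyclins and kinases ranged from -0.54 (without wild type 1b) to -0.079 (without wild type 2). Other mitotic kinesins ranged from -0.15 to 0.18 (0.08 without 35S:miR396 2, 0.18 without wild type 2). Other kinesins ranged from -0.0031 (without wild type 1b) to 0.29. Spindle and phragmoplast proteins ranged from -0.17 (without 35S:miR396 1) to 0.38 (without 35S:miR396 2), with 0.37 without wild type 1b and -0.12 without wild type 2. Tubulins ranged from -0.076 (without wild type 1b) to 0.069 (without wild type 2), and stood at 0.0022 after quantile normalization. The cause was not tested. Low signals and the number of arrays limit the kinesin values.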

Other observations

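Some single kinesins outside the 6 had genotype ratios that lay far apart in the 2 replicate numbers. AT3G44050 was at 5.2 on 35S:miR396 1 and 25.5 on 35S:miR396 2, against 28.3 on wild type 1b and 21.9 on wild type 2, log2 ratios of -2.18 in number 1 and 0.03 in number 2. On 35S:miR396 2 its signal was between those of the wild-type arrays. AT5G60930 was at 69.8 and 40.1 in 35S:miR396, against 41.8 and 54.1 in wild type, log2 ratios of 1.01 in number 1 and -0.62 in number 2. Neither gene separated the genotypes. Both were singled out after their values were seen.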
